A study of Mus musculus with 16 samples.

Results

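Transcripts of the colonic epithelium were compared after dextran sulfate sodium (DSS) colitis between 4 mice labelled as epithelial Tnfr2 knockouts and 3 controls. These are the 7 DSS-treated mice of a series of 16, chosen by their treatment and genotype labels, and the other 9 were given water. Controls carried loxP-flanked Tnfr2 alleles (Tnfr2 flox/flox, with exon 2 flanked), and the knockout-labelled mice carried the same alleles with Vil1-Cre, a recombinase driven by the villin promoter in the intestinal epithelium. DSS, a polymer that strips the colonic epithelium and causes ulcers, was in the drinking water for 6 days at 3% by the labels (the study's text gives a slightly higher dose). The distal colon was taken on day 12 after DSS began. By the study's methods, its injured regions were separated from unaffected colon, and EpCAM+ cells, the epithelial cells, were sorted from them. The study used mice of 8 weeks, and all 7 were female. By the labels, control 3 and knockout-labelled 1 shared cage c, and the other 5 mice were in cage d. A number names a mouse within its group and pairs it with no other.

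TNFR2, encoded by Tnfrsf1b, is a receptor for tumor necrosis factor that lacks the death domain of TNFR1 and signals through TRAF adaptors to NF-kB. In the colon it is known from lymphocytes and from injured epithelium. After DSS, the epithelium closes ulcers by proliferation and by a temporary loss of goblet cell and absorptive cell features, and the comparison asks how the epithelium differs at day 12 when the receptor is targeted. Many genes make several transcripts from different start sites or with different ends. A short read that lies in a stretch common to several transcripts fits them all, and the abundance program divides such reads among them by estimation.

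The values were TPM, an abundance scaled for transcript length and for the size of the library, and every difference below is the mean of log2(TPM + 1) in the knockout-labelled mice minus that in the controls. The table listed 28988 transcripts of 22396 gene symbols, and 12547 transcripts of 10812 symbols had a mean of at least 1 TPM and were tested with limma. The groups of a transcript were said not to overlap when every knockout-labelled mouse was above, or every one below, all 3 controls. The tables give no read counts, so the depth behind a value is unknown.

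Epcam itself stood between 894 and 1020 TPM in the 7 mice, and Cd3e, a T cell marker, at no more than 0.21 TPM. Ptprc, of all leukocytes, reached 4.88 TPM, and the fibroblast collagen Col3a1 ranged from 29.4 to 126 TPM, high in control 1 and in knockout-labelled 2 and 3. Control 3 stood apart from the rest: its rank correlations with the other mice were 0.792 to 0.858, and it lay at 76 on the first principal component (27.1% of the variance), where the others lay between -41.4 and 16. It also had the highest goblet, deep crypt secretory and tuft cell levels.

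Tnfrsf1b, the targeted gene, did not follow the labels. Its single listed transcript, ENSMUST00000030336.10, had 22.2, 13.9 and 13.4 TPM in the 3 controls against 27.0, 13.5, 15.2 and 17.7 TPM in the knockout-labelled mice. The groups overlapped, and the means were 16.5 ± 4.95 (SD, n = 3) and 18.4 ± 6.02 (SD, n = 4). The difference was 0.14 (SE 0.28), with an exact two-sided permutation p of 0.629. The difference was -0.18 in cage d and -0.06 without knockout-labelled 1, so it had no stable direction. The level gave no check of the labels, and the mice are called knockout-labelled throughout. Separately, the study reported less TNFR2 protein on EpCAM+ cells of the knockout genotype by flow cytometry. It also reported loss of the transcript in sorted EpCAM+ cells by qPCR, without saying whether these mice were among those measured. The transcript (chr4:145213463-145246870, minus strand, GRCm38) has 10 exons and 3818 bases, of which the flanked exon 2 (chr4:145229004-145229106) is 103 bases, or 2.7%. Of its 3788 windows of 31 bases, 133 (3.51%) touch exon 2. What a deletion of exon 2 would do to the TPM was not tested. Reads over exon 2 alone were not analysed here. In water-treated mice, whose table was scaled separately, the transcript had 11.1 to 15.5 TPM in 4 controls and 9.23 to 14.8 TPM in 5 knockout-labelled mice, and these groups overlapped too.

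The start of the paired transcripts shows how close the compared RNAs are, so the junctions of 3 genes are printed before their values. Each line holds 30 bases of the transcript, 5′ to 3′, from GENCODE M21 on GRCm38. The lower case letters are the last 15 bases found in that transcript alone of the pair. The capitals are the first 15 bases that both read from the same genome positions. The start codon stands within or at the beginning of the capitals. Erlin1 (chromosome 19, minus strand) joins at base 44069395, Gtf2e2 (chromosome 8, plus strand) at base 33735734 and Use1 (chromosome 8, plus strand) at base 71367235.
Erlin1 ENSMUST00000112028.9: atgcgtcactgaccgGAGGAACAAGGATGA
Erlin1 ENSMUST00000170801.7: tctccccatgctcagGAGGAACAAGGATGA
Gtf2e2 ENSMUST00000170705.7: cgacccccttggcagCATTATGGATCCAAG
Gtf2e2 ENSMUST00000171010.7: cggaggagtcgagagCATTATGGATCCAAG
Use1 ENSMUST00000019169.7: ccgcccttttctaagATGGCGCAGGCGGAA
Use1 ENSMUST00000110054.7: aacgaaaaaggccagATGGCGCAGGCGGAA
In all 3 genes the members of a pair code for the same protein. The start sites lie 259 bases apart in Erlin1, 506 in Gtf2e2 and 275 in Use1. In Erlin1 and Use1 everything after the start codon is identical as well, so that only the leader separates the members of the pair.

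Of the 12547 transcripts, 2 (0.0159%) passed an adjusted p of 0.05, 1 in each direction, and 410 (3.27%) had an unadjusted p under 0.05. Tra2a, a serine/arginine-rich regulator of splicing, was higher in the knockout-labelled mice. Its transcript ENSMUST00000031841.8 had 0.000504, 0.000267 and 0.718 TPM in the 3 controls against 12.2, 10.4, 12.1 and 14.4 TPM in the knockout-labelled mice. The groups were far apart, with the controls near 0. The difference was 3.46 (SE 0.26; limma, Benjamini-Hochberg adjusted p = 0.0264), and the exact permutation p of 0.0286 was the smallest that 3 against 4 mice allow. It is the only listed transcript of Tra2a (chr6:49243928-49264030, minus strand), has 8 exons and 1799 bases, and none of its 31-base windows is absent from the gene's other 4 annotated transcripts. One of these, ENSMUST00000204818.1, holds 98.3% of its windows, but it is not listed, so the values say how this transcript was estimated and not how much Tra2a RNA there was.

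Erlin1, an endoplasmic reticulum membrane protein of the machinery that degrades activated inositol trisphosphate receptors, gave the other call. The transcript ENSMUST00000170801.7 had 6.89, 15 and 12.8 TPM in the controls and between 1.18e-05 and 3.72e-05 TPM in all 4 knockout-labelled mice. The difference was -3.59 (SE 0.30; limma, adjusted p = 0.0286), and the exact permutation p was 0.0286. None of its windows was its own either. The other tested transcript, ENSMUST00000112028.9, had 12.5, 0.00212 and 0.000226 TPM in the 3 controls against 16.04, 18.8, 15.7 and 15.3 TPM in the knockout-labelled mice, a difference of 2.87 (SE 0.88, adjusted p = 0.999 by limma). Every knockout-labelled mouse was thus above every control for one start site and below for the other. Summed over the listed transcripts of Erlin1, the difference was 0.005 (SE 0.145), and the groups overlapped.

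Both calls were lost with cage as a covariate (adjusted p = 0.055 for Tra2a and 0.128 for Erlin1 by limma), and within cage d the differences were 3.72 and -3.49. They were also lost with a pseudocount of 0.1, without the filter on low values, with a minimum mean of 5 TPM (which removes the Erlin1 transcript), in cage d alone, and without control 2 or any single knockout-labelled mouse, and the Erlin1 call without control 3 as well (adjusted p up to 0.264 over these fits by limma).

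Neither call had a clear counterpart in the water-treated mice. There the Tra2a transcript had 16.1, 9.84, 30.8 and 0.252 TPM in the 4 water controls against 31.1, 8.87, 22.8, 3.68 and 21.6 TPM in the knockout-labelled mice. The called Erlin1 transcript had 0.115, 12.4, 10.6 and 4.43 TPM in the water controls and 2.76, 10.8, 2.09e-06, 3.09e-05 and 1.06e-06 TPM in the others. Both transcripts were near 0 in some mice and above 10 TPM in others of the same group. Within the DSS groups too, such jumps were common: 1102 of the 12547 transcripts (8.78%) had a mouse under 0.1 TPM beside a mouse of its own group with at least 5 TPM. A separation of the 2 groups of this kind, with every mouse of one under 0.1 TPM and every mouse of the other at 1 TPM or more, was found for 9 transcripts (0.0717%).

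**Figure D1:**
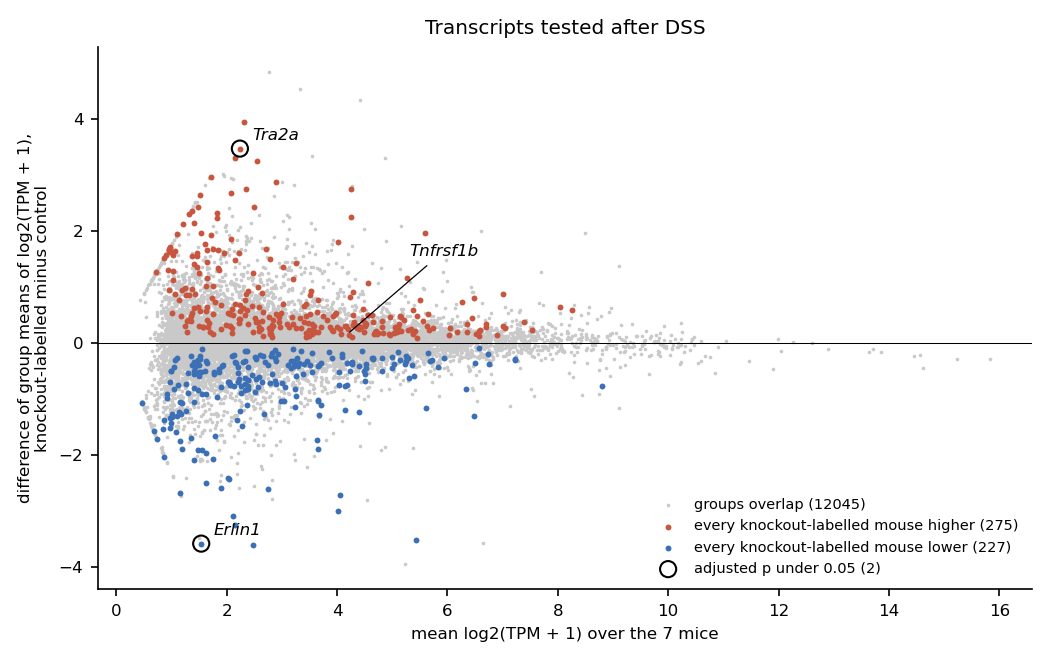
Each point is a transcript tested after DSS, with its mean log2(TPM + 1) over the 7 mice on the x axis and the difference of group means, knockout-labelled minus control, on the y axis. The 2 circled transcripts passed the adjusted threshold, coloured points are the 275 higher and 227 lower transcripts whose groups do not overlap, and Tnfrsf1b lies at 0.14 among the overlapping transcripts.

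The groups did not overlap for 502 of the 12547 transcripts (4.00%), of 491 symbols. All 4 knockout-labelled mice were higher in 275 (2.19%) and lower in 227 (1.81%). Of the 35 ways to split the mice into 3 and 4, 1 (a share of 0.0286) puts a given 4 on top, and 1 puts them at the bottom. Neither share of transcripts exceeded this, so the counts alone show no excess of separation. After quantile normalization 214 were higher and 281 lower, so the excess of higher transcripts turned with the scaling. Many differences were small: 248 of the 502 were under 0.5, and 124 (65 higher, 59 lower) reached 1. In the water-treated mice 195 of 12661 transcripts (1.54%) did not overlap, between groups of 4 and 5 mice, in which separation is rarer, and 2 (0.0158%) were called.

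Transcripts with large differences had few windows of their own. Over all tested transcripts, a median of 14.8% of the 31-base windows was held by no other annotated transcript of the gene. This median was 2.06% in the 124 that reached 1 and 39.1% in the 248 under 0.5. Of the 124, 93 had at least 1 mouse under 0.1 TPM. Differences of 1 or more were found in 442 of 3139 transcripts (14.1%) of genes with several tested transcripts and in 299 of 9408 (3.18%) of genes with 1. The part that shared reads played in any single difference was not tested.

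Among the 12 largest differences with the knockout-labelled mice higher, 4 transcripts had 1 listed transcript for the gene. Besides Tra2a these were Ecscr, a surface protein of endothelial cells, Slc1a4, a neutral amino acid transporter, and 1810009A15Rik. Ecscr had 4.20, 0 and 0 TPM in the 3 controls against 12.8, 9.74, 8.98 and 11.2 TPM in the knockout-labelled mice, a difference of 2.74 (SE 0.58; limma, adjusted p = 0.904). Of the 14 tested transcripts of the endothelial list, 9 were above 0. Ecscr was the 1 whose groups did not overlap (7.14%, beside 4.00% of all transcripts). Cdh5, another endothelial gene, had 6.73, 2.42 and 4.03 TPM against 3.03, 5.86, 4.15 and 2.30 TPM, and the median difference of the list was 0.042, which was -0.163 without control 2 and 0.258 without control 1. Slc1a4 had 9.27e-06, 2.96e-06 and 2.18 TPM against 6.98, 13.3, 2.45 and 18.2 TPM, so that knockout-labelled 3 lay just above control 3. 1810009A15Rik had 0, 3.15 and 1.49 TPM against 19.2, 9.28, 8.03 and 8.72 TPM.

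The remaining 8 were single transcripts of genes with several listed, and the sum of the gene moved little or not at all. The transcript of Hadhb, the beta subunit of the mitochondrial trifunctional protein of fatty acid oxidation, had 0.0202, 0.00443 and 0.127 TPM in the 3 controls against 23.0, 72.1, 1.24 and 15.6 TPM in the knockout-labelled mice. The sum over the 3 listed Hadhb transcripts differed by -0.007. For Tmbim6, a Bax inhibitor of the endoplasmic reticulum, the transcript had 3.17, 3.06e-07 and 0 TPM against 3.45, 22.3, 14 and 34.1 TPM, and the sum differed by 0.043. Dedd, which carries a death effector domain, was listed at 0 for this transcript in all 3 controls and at 11.5, 4.73, 4.36 and 2.95 TPM in the knockout-labelled mice, while its sum differed by -0.082. Banf1, a chromatin protein of the nuclear envelope, had 11, 0.00314 and 21.5 TPM against 53.2, 92.8, 22.7 and 28.3 TPM, with a sum that differed by -0.006. Prpsap2, Gtf2e2, Hspb11 and the second Erlin1 transcript make up the rest.

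Among the 12 largest with the knockout-labelled mice lower, Trp53, the p53 tumor suppressor, had the largest difference. Its single listed transcript, ENSMUST00000108658.9 (chr11:69580359-69591872, plus strand), had 18.97, 21.8 and 27.1 TPM in the 3 controls against 1.62, 1.45e-06, 0.0202 and 4.03 TPM in the knockout-labelled mice. The groups were widely separated, yet the difference of -3.61 (SE 0.58) had an adjusted p of 0.432 by limma. None of its windows was its own among the gene's 6 annotated transcripts, and in the water-treated mice it lay between 13.2 and 23.9 TPM in all 9. Phgr1, a small protein abundant in the intestinal epithelium, had 155, 104 and 323 TPM in the 3 controls against 0.000201, 35.9, 33.1 and 41.1 TPM in the knockout-labelled mice, a difference of -3.52 (SE 1.33) that was -2.22 without knockout-labelled 1.

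Fam171a1 had 7.64, 9.18 and 5.65 TPM against 3.20, 0.0441, 0.0277 and 0.0347 TPM, and Gm10135 had 9.18, 14.99 and 40.1 TPM against 8.74, 0, 0 and 8.13 TPM. The others belonged to genes with several listed transcripts. For Kdm3a, a demethylase of histone H3, the transcript had 9.92, 5.36 and 15.3 TPM against 0.000479, 1.44, 2.54 and 0.00245 TPM, and the gene sum differed by -0.045. For Lsr, a protein of tricellular junctions, it had 0.000116, 16.4 and 14.6 TPM against no more than 8.26e-06 TPM, with control 1 as low as the other group and a gene sum difference of -0.366. Pdzk1ip1, a small membrane protein, had the largest gene sum difference of these genes, -0.932, although the summed groups overlapped. Its transcript had 12.5, 17.6 and 11.7 TPM against 2.49e-06, 5.83, 0.291 and 0 TPM.

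**Figure D2:**
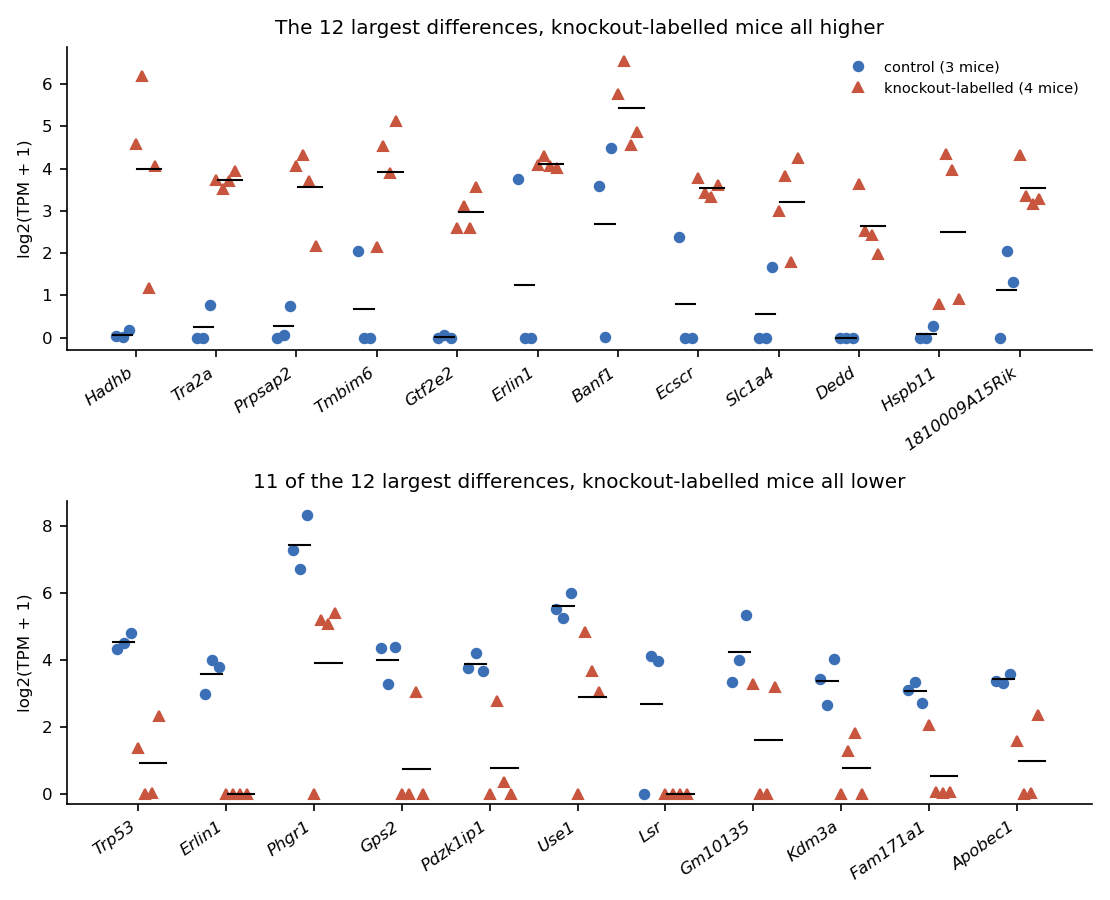
The y axes give log2(TPM + 1) of the 12 transcripts with the largest differences upward (upper panel) and of 11 of the 12 downward (lower panel) among those whose groups do not overlap; circles are the 3 controls, triangles the 4 knockout-labelled mice, and bars the group means. In most of them 1 or more mice lie at or near 0.

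Where a gene had several tested transcripts, its sum seldom separated the groups. Of the 502 non-overlapping transcripts, 148 belonged to genes with several tested transcripts (4.71% of 3139) and 354 to genes with 1 (3.76% of 9408). The gene sum did not overlap either, in the same direction, for 17 of the 148 (11.5%). Over all 502 this held for 356 (70.9%). With 1 tested transcript, however, the sum is mostly that transcript itself, so such agreement is largely built in. Over all 10899 gene sums tested, 401 (3.68%) did not overlap, and 1 (0.00918%), Tra2a, was called.

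**Figure D3:**
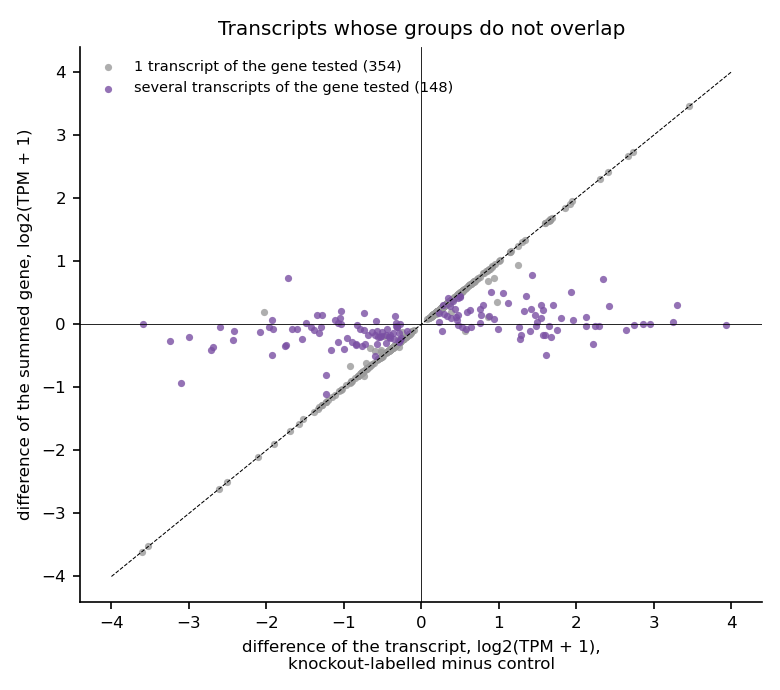
Each point is 1 of the 502 transcripts whose groups do not overlap, with its own difference of log2(TPM + 1) on the x axis and that of the summed gene on the y axis; the dashed line marks equality. Grey points (genes with 1 tested transcript) mostly lie on or near the line, because their sum is mostly that transcript. The 148 purple points (several tested) mostly lie near a gene sum difference of 0.

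Transcripts of one gene that moved apart were sought directly, by testing the difference between 2 transcripts of a gene within each mouse. Of 2183 pairs in 1400 genes, 0 passed an adjusted p of 0.05 by limma (0%), and 115 (5.27%) had an unadjusted p under 0.05, 105 of them with members of opposite sign. In 98 pairs (4.49%) of 90 genes the members had opposite signs and the within-mouse differences did not overlap between the groups. The gene sum overlapped in 89 of the 98. Opposite signs were themselves frequent, in 1275 of all 2183 pairs (58.4%). The coding sequence was identical in 97 of the 98 pairs (99%), as in 2176 of the 2183 tested (99.7%), so that nearly every pair differed outside the coding sequence. Only APPRIS principal isoforms were listed, so transcripts that differ in the coding sequence could seldom be compared, and this share is no trait of the 98 pairs. The start sites of the 98 pairs lay a median of 267 bases apart, and their ends 6 bases. Over all 2183 pairs these medians were similar, at 241 and 13 bases.

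The largest pair difference was that of Erlin1, 6.46 (SE 1.16, adjusted p = 0.533 by limma over all pairs). The transcript with the upstream start site made up 64.5%, 0.0141% and 0.00152% of the gene sum in the controls and 100% in each knockout-labelled mouse. Control 1 thus held both transcripts, and the downstream one made up 100% of the sum in control 2 and 85.9% in control 3. For Prpsap2, a regulatory partner of phosphoribosyl pyrophosphate synthetase, ENSMUST00000004955.13 made up 0%, 0.317% and 3.78% of the sum in the controls and 100%, 100%, 72.9% and 16.7% in the knockout-labelled mice. The difference was 5.55 (SE 1.52), and the gene sum differed by 0.302. Its start sites are only 26 bases apart.

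Gtf2e2, the beta subunit of the general transcription factor TFIIE, had the transcript with the next lowest adjusted p after the 2 calls. ENSMUST00000170705.7 had 0.00168, 0.0456 and 0.000402 TPM in the 3 controls against 5.09, 7.65, 5.09 and 10.8 TPM in the knockout-labelled mice, a difference of 2.95 (SE 0.30; limma, adjusted p = 0.0738). Its partner in the printed pair stood at 12.04, 4.19 and 3.17 TPM in control mice and near 0 in 3 of the 4 knockout-labelled mice, with 4.79 TPM in knockout-labelled 2. The sum of the gene's 3 transcripts differed by -0.001, and the pair by 5.03 (SE 0.83). For Use1, a SNARE protein of retrograde transport to the endoplasmic reticulum, ENSMUST00000019169.7 had 45.4, 37.6 and 63.6 TPM against 2.85e-05, 27.4, 11.9 and 7.204 TPM. Its partner had 3.37, 15.5 and 37.7 TPM against 41.6, 29.8, 40.9 and 35.95 TPM, overlapping between the groups. The share of the first in the gene sum was at least 62.8% in the controls and at most 47.9% in the knockout-labelled mice.

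Apobec1, the cytidine deaminase that edits apolipoprotein B mRNA, had a transcript at 9.35, 9.00 and 11.1 TPM in the controls and at 1.99, 0, 0.0223 and 4.14 TPM in the knockout-labelled mice. Its partner, which starts 2244 bases away, had 4.31, 2.33 and 4.68e-05 TPM against 10.7, 11.5, 9.34 and 4.28 TPM. For Gps2, a subunit of the NCoR corepressor complex, 1 transcript had 19.5, 8.68 and 20.2 TPM against 0.0125, 3.12e-07, 7.21 and 0 TPM, and the other overlapped. Here the gene sum was also lower in every knockout-labelled mouse, by -0.26 (SE 0.13).

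Hspb11, Apoe and Rhno1 gave 3 more pairs. Hspb11, of the intraflagellar transport complex, switched in 2 mice alone: ENSMUST00000046558.7 made up 100% of the sum in knockout-labelled 2 and 3 but no more than 6.71% in the other 5 mice. Apoe, the apolipoprotein, had 1 transcript listed at 0 in all controls and at 1.65, 4.61, 5.67 and 2.64 TPM in the knockout-labelled mice, and another at 0, 3.52 and 11.7 TPM in the 3 controls against 0 in all the others. Apoe is also a macrophage gene, and the 17 tested transcripts of the myeloid list had a median difference of -0.155 (0.074 without control 1) with 0 non-overlapping. Rhno1, of the DNA damage checkpoint, had overlapping groups for both of its paired transcripts.

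**Figure D4:**
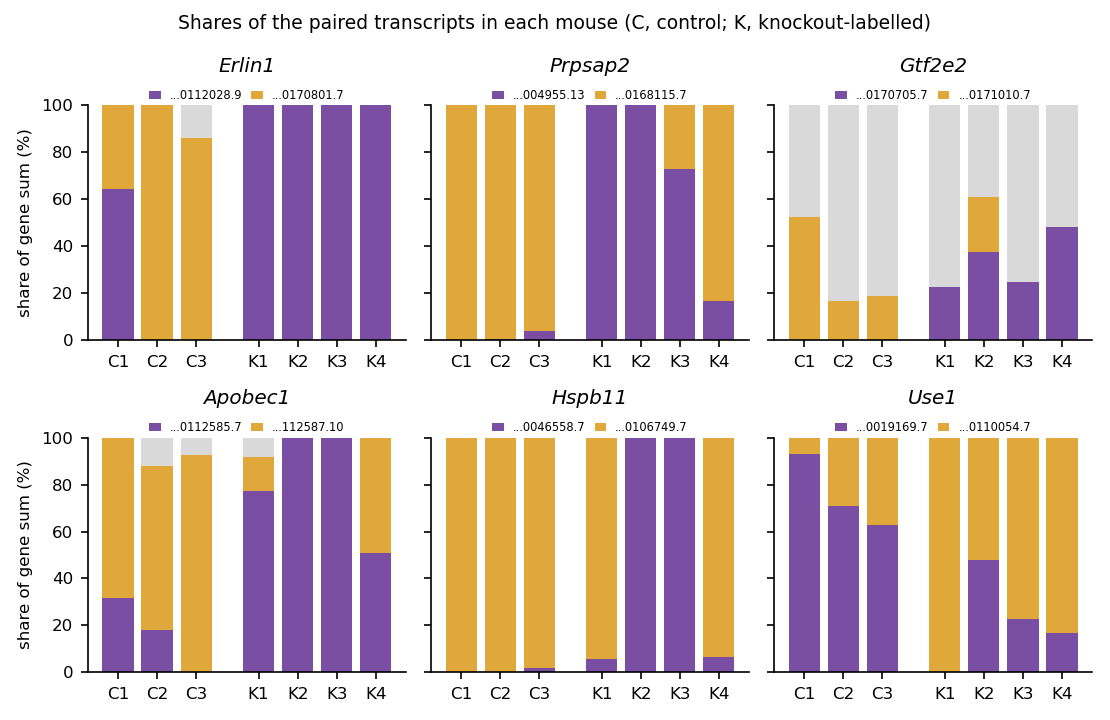
Stacked bars give the percent of the listed gene sum that each of the 2 paired transcripts made up in each mouse (C, controls 1 to 3; K, knockout-labelled 1 to 4; grey, other listed transcripts) for the 6 largest pair differences. Erlin1 is at 100% for one transcript in all 4 knockout-labelled mice, while Hspb11 reaches 100% in K2 and K3 only.

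A pair with far higher levels was found in the stem and Wnt list. Ctnnb1, or beta-catenin, the effector of Wnt signaling, had 2 listed transcripts with the same coding length of 2343 bases. The shorter, ENSMUST00000178812.8, had 9.61, 2.86 and 10.7 TPM in the 3 controls against 61.6, 38.9, 18.9 and 36.7 TPM in the knockout-labelled mice, a difference of 2.24 (SE 0.50; limma, adjusted p = 0.929). The main one, ENSMUST00000007130.14, had 162, 163 and 181 TPM against 138, 134, 127 and 140 TPM, a difference of -0.32 (SE 0.10). Both were without overlap and in opposite directions, and the gene sum differed by -0.03 with overlapping groups. In water the shorter transcript had 34.8 to 72.4 TPM in the 4 controls against 46.2 to 75.6 TPM in the knockout-labelled mice.

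The gene lists describe which functions the transcripts belong to. Over all 12547 transcripts the median difference was 0.021, and 5853 were below 0. The 17 tested goblet cell transcripts had a median of -0.427, with 16 below 0, but 0 called. Only Clca1 was without overlap (5.88%, beside 4.00% of all transcripts). Clca1, a secreted protease of the mucus layer, had 114, 129 and 230 TPM in the 3 controls against 52.8, 70.9, 92.4 and 36.7 TPM in the knockout-labelled mice, 2.5-fold lower by the means (difference -1.32, SE 0.36; limma, adjusted p = 0.999). Muc2, the main goblet mucin, had 33.3, 37.5 and 160 TPM against 29.4, 46.9, 40.3 and 18.8 TPM. Its listed transcript has none of its windows to itself, and the groups overlapped. All 7 transcripts of the deep crypt secretory list were below 0 (median -0.824), and 0 were without overlap. Reg4, its best known marker, had 244, 152 and 566 TPM against 225, 97.8, 215 and 85.1 TPM.

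These lists were highest in control 3, the mouse that stood apart. The mean log2(TPM + 1) of the goblet list was 4.598, 4.52 and 5.23 in the controls and 4.56, 4.43, 4.41 and 4.19 in the knockout-labelled mice. Without control 3 the median difference was -0.139 for the goblet list and -0.318 for the deep crypt secretory list, against up to -0.700 and -1.34 without control 2. Bulk RNA does not tell fewer cells of a type from less RNA per cell.

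The study's own goblet list of 17 tested transcripts had a median of -0.683, with 16 below 0 and 3 without overlap (17.6%, beside 4.00% of all transcripts), Slfn4, Clca1 and Cyp2d12. Without control 3 this median was -0.182, and without control 2 it was -1.17. Slfn4, a Schlafen family member induced by interferon and known from myeloid cells, differed evenly: it had 41.1, 28.8 and 30.8 TPM in the 3 controls against 14.7, 12.5, 11.6 and 15.7 TPM in the knockout-labelled mice. The means were 33.6 ± 6.62 (SD, n = 3) and 13.6 ± 1.90 (SD, n = 4), 2.47-fold apart, and the difference was -1.24 (SE 0.17; limma, adjusted p = 0.339). The sum of its 2 transcripts was also lower in every knockout-labelled mouse, by -1.10. Cyp2d12, a cytochrome P450, had 1.74, 1.54 and 16.8 TPM against 0.486, 5.15e-05, 1.38 and 0.570 TPM.

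Of 36 tested interferon-stimulated transcripts, 30 differed by less than 0, the median was -0.325, and it lay between -0.202 (without control 1) and -0.446 (without control 3) when any single mouse was left out. None was called, and 2 were without overlap (5.56%, beside 4.00% of all transcripts). Isg15, a ubiquitin-like protein, had 12.0, 10.4 and 10.6 TPM in the 3 controls against 7.72, 5.42, 3.81 and 3.25 TPM in the knockout-labelled mice, 2.17-fold lower (difference -1.04, SE 0.27; limma, adjusted p = 0.999). Isg15 has 1 annotated transcript, so no other transcript of the gene could share its windows. Ifih1, the RNA sensor MDA5, had 5.00, 6.02 and 4.67 TPM against 3.72, 4.28, 2.90 and 3.55 TPM. In water, Isg15 had 2.10 to 8.65 TPM in the 4 controls against 0.782 to 16.2 TPM in the knockout-labelled mice.

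Markers of mature surface colonocytes had a median of -0.319, with 24 of 33 below 0 and 2 without overlap (6.06%, beside 4.00% of all transcripts). The median was -0.181 without control 1. Slc20a1, a phosphate transporter, had 54.1, 48.7 and 54.4 TPM against 37.1, 36.7, 33.2 and 30.3 TPM for 1 transcript. The sum of its 2 listed transcripts differed by -0.498, with overlapping groups. Hsd17b2, an enzyme that inactivates estradiol, had 33.8, 34.7 and 42.9 TPM against 28.3, 29.3, 26.2 and 28.6 TPM. In the study's absorptive list 51 of 65 were below 0 (median -0.282, and -0.173 without control 1), and 4 were without overlap (6.15%). The serum amyloid gene Saa1 had 593, 480 and 789 TPM against 289, 458, 342 and 344 TPM, 1.73-fold lower by the means. Ctss, the protease cathepsin S, had 106, 117 and 118 TPM against 104, 93.9, 92.9 and 106 TPM, nearly touching. Naip1, a receptor of the inflammasome, had 15.6, 20.4 and 18.4 TPM against 9.47, 6.98, 9.56 and 7.32 TPM for 1 transcript, but the sum with its other listed transcript differed by -0.001. Rhoc, a small GTPase, had a minor transcript at 0.401, 1.27 and 1.87e-08 TPM against 8.18, 8.77, 1.34 and 9.40 TPM, and a gene sum that differed by -0.309.

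Proliferation transcripts lay slightly higher, with 39 of 48 above 0 and a median of 0.191, which was 0.313 without control 2. Dscc1, which helps to load the replication clamp and cohesion factors, was the 1 without overlap (2.08%, beside 4.00% of all transcripts). It had 1.75, 2.15 and 1.67 TPM against 4.14, 3.66, 3.01 and 3.36 TPM. Mki67 had 49.1, 69.0 and 43.0 TPM against 54.9, 52.5, 58.1 and 70.2 TPM, with overlap. The stem cell receptor Lgr5 had 4.30, 7.07 and 4.16 TPM against 6.61, 10.4, 7.05 and 9.05 TPM, a difference of 0.60 (SE 0.24; limma, adjusted p = 0.999) in which control 2 lay among the knockout-labelled mice. The stem and Wnt list had 17 of 25 transcripts above 0.

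Repair genes gave no common direction. In the repair and YAP list 19 of 31 were above 0 (median 0.137, but 0.369 without control 1, 0.086 without control 2, 0.067 without control 3 and 0.221 without knockout-labelled 4). Tead1, the transcription factor that YAP binds, was the 1 without overlap (3.23%, beside 4.00% of all transcripts). It had 2.11, 0.954 and 1.32 TPM against 3.84, 3.14, 2.63 and 3.24 TPM. Yap1 had 20.0, 3.73 and 15.6 TPM against 16.1, 15.6, 12.5 and 8.46 TPM. Clu had 28.04, 5.98 and 8.96 TPM against 5.62, 9.59, 9.37 and 4.61 TPM. Of the 246 tested transcripts of the study's fetal intestine list, 144 were above 0 (median 0.085), and 9 higher and 4 lower ones were without overlap, 5.28% together beside 4.00% of all transcripts. The median of this list was -0.008 without control 2, 0.050 without knockout-labelled 1 and 0.043 without knockout-labelled 3. The adhesion molecule Icam1, a target of NF-kB, had 17.6, 11.4 and 10.2 TPM against 31.02, 18.6, 26.5 and 18.6 TPM. Mcam, an adhesion molecule of vessels and stroma, had 1.14, 2.14 and 0.542 TPM against 4.33, 3.97, 7.32 and 2.79 TPM. Gpx2, an epithelial glutathione peroxidase of the progenitor lists, had 47.5, 59.9 and 65.6 TPM against 105, 80.3, 123 and 77.5 TPM, 1.67-fold higher by the means. It had the same order of means in water, with overlap.

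Ly6a, which encodes the Sca-1 antigen of regenerating crypts, had 3 tested transcripts, all with overlap. ENSMUST00000187994.6, the most abundant, had 269, 100 and 72.8 TPM in the 3 controls against 309, 131, 161 and 176 TPM in the knockout-labelled mice (difference 0.55, SE 0.48; limma, adjusted p = 0.999). The difference turned to -0.09 in cage d, and was 0.16 without control 3 and 1.10 without control 1. ENSMUST00000189068.6 had 112, 173 and 85.3 TPM against 124, 110, 87.5 and 98.0 TPM. The third, ENSMUST00000187171.1, had 38.7 TPM in control 2 and 6.06e-07 and 5.47e-07 TPM in the other controls, against 59.98, 41.2, 13.4 and 0.522 TPM. The summed Ly6a differed by 0.248.

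TNF receptor signaling, the pathway of the targeted gene, had 51 tested transcripts with a median of 0.033, and of 0.174 without control 3. It had 0 called and 0 with an unadjusted p under 0.05 by limma, beside 3.27% of all transcripts. It also had 0 without overlap, beside 4.00% of all transcripts. Tnfrsf1a, the gene of TNFR1, had 22.9, 22.2 and 37.3 TPM against 37.4, 27.9, 32.3 and 28.7 TPM. The 77 splicing factor transcripts, the list of Tra2a, had a median of 0.020 and 3 without overlap (3.90%, beside 4.00% of all transcripts). Clk4, a kinase of splicing factors, had 26.7, 28.2 and 26.9 TPM against 20.0, 22.9, 22.5 and 22.6 TPM. A transcript of Srsf5 had 26.6, 27.8 and 32.2 TPM against 22.1, 25.9, 12.5 and 13.1 TPM, and the Srsf5 sum differed by -0.171 with overlap.

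Hnf4a, a transcription factor of enterocyte identity, was the 1 without overlap among 18 tested transcripts of the epithelial identity list (5.56%, beside 4.00% of all transcripts). Its listed transcript had 7.95, 21.4 and 53.5 TPM in the 3 controls against 92.1, 81.8, 94.3 and 72.3 TPM in the knockout-labelled mice, 3.08-fold higher by the means (difference 1.95, SE 0.54; limma, adjusted p = 0.999). It has none of its windows to itself among 5 annotated transcripts. In water it had 58.7 to 125 TPM in the 4 controls against 26.04 to 93.8 TPM in the knockout-labelled mice.

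The study's deep secretory list had a median of -0.422 over 51 transcripts with 44 below 0. This median was -0.103 without control 3 and -0.677 without control 2. Clca1 was the 1 in this list without overlap (1.96%, beside 4.00% of all transcripts). The study gave further lists. Its progenitor 1, 2 and 3 lists had medians of 0.151, -0.046 and -0.171, and its enteroendocrine and tuft lists -0.133 and 0.312. Without control 3 these 5 medians were 0.114, 0.052, -0.036, -0.026 and 0.957, without control 2 they were 0.251, -0.100, -0.285, -0.237 and -0.009, and without control 1 they were 0.062, -0.177, -0.192, -0.172 and -0.013. Each of the 5 also moved by over 1.5 times without 1 knockout-labelled mouse (mouse 4 for progenitor 1 and 3, mouse 1 or 3 for progenitor 2, and mouse 1 or 2 for enteroendocrine and tuft). The progenitor 3 list held Phgr1 and Cyp2c68, a cytochrome P450, at 39.2, 27.7 and 34.8 TPM against 21.7, 25.5, 26.9 and 19.6 TPM. The hand-written enteroendocrine and tuft lists had 0 without overlap.

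**Figure D5:**
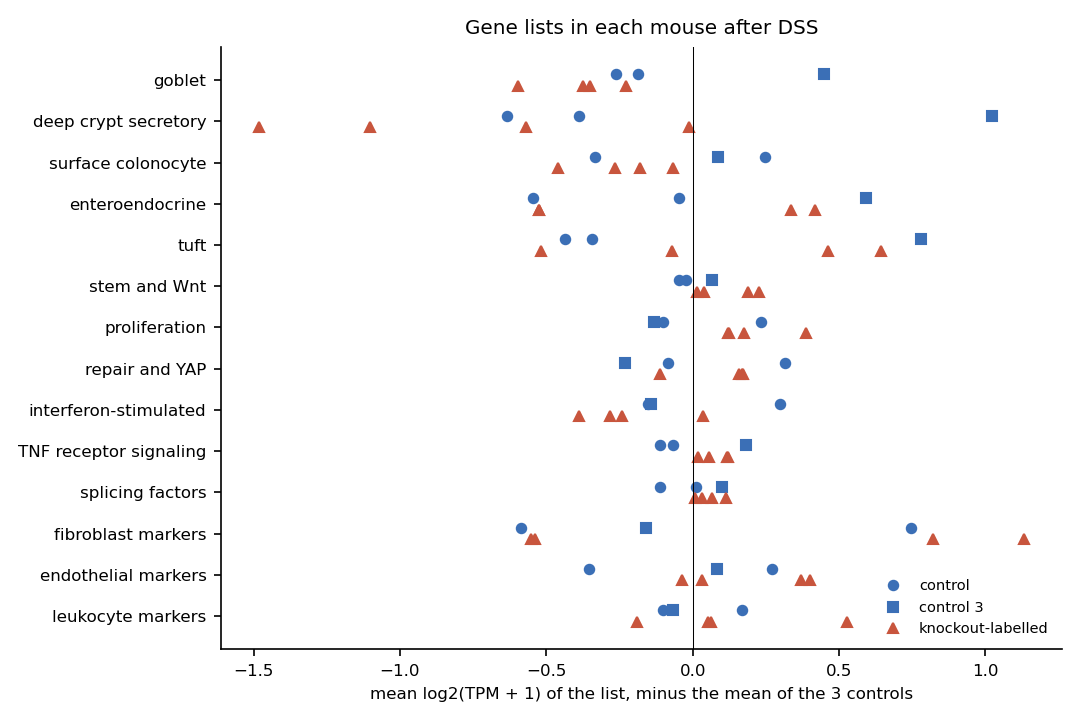
For each gene list the x axis gives the mean log2(TPM + 1) of its listed transcripts in a mouse minus the mean of the 3 controls; circles are controls 1 and 2, squares control 3 and triangles the 4 knockout-labelled mice. Control 3 lies highest for goblet, deep crypt secretory, enteroendocrine and tuft cell genes, and in every list drawn the groups overlap.

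Markers of other cells moved with single mice more than with the groups. The fibroblast list had 19 of 22 tested transcripts above 0 (median 0.236), but the median was -0.111 without control 2, -0.042 without knockout-labelled 2, -0.173 without knockout-labelled 3 and 0.668 without control 1, and its summed TPM was 205 to 727 in the controls and 209 to 988 in the knockout-labelled mice. Leukocyte markers summed to 22.7 to 106 TPM against 23.9 to 484 TPM, myeloid markers to 188 to 2050 against 347 to 604 TPM, and smooth muscle markers to 31.4 to 64.1 against 18.3 to 59.0 TPM. The part of other cells in any difference was not tested. Dissociation and stress genes had 23 of 29 transcripts above 0 (median 0.130, from 0.046 without knockout-labelled 1 to 0.324 without control 3), and mitochondrially encoded genes 12 of 13 below 0 (median -0.175, from -0.088 without control 2 to -0.280 without control 3), both with 0 without overlap.

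Beside the water-treated mice, 455 of the 502 non-overlapping transcripts could be tested, and 220 (48.4%) had the same sign there. Without overlap in both treatments and in the same direction were 2 of them (0.440%). Of all transcripts tested in water, 1.54% were without overlap in either direction. Resf1, which takes part in silencing retroviral elements, had a difference of -1.23 (SE 0.55) after DSS and of -1.71 (SE 0.30) in water. Map7, a microtubule-associated protein, had -0.16 (SE 0.10) and -0.48 (SE 0.13). Another 4 (0.879%) were without overlap in opposite directions.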

How the data were processed

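RNA of EpCAM+ cells sorted from injured regions of the distal colon was measured in 3 control and 4 knockout-labelled mice after DSS. Groups, numbers and cages come from the labels. Per the labels and the study's methods, the authors made stranded libraries from polyadenylated RNA, and quantified and tested them with kallisto and sleuth (mm10 in the processing notes; the annotation release is not given in the sources used here). They deposited TPM per transcript and mouse, with only APPRIS principal isoforms listed (sums of 539359 to 662142 TPM a mouse). Another 12 columns hold the authors' test results and log2 ratio and were not used. Of 29373 lines, 385 repeated a transcript and were dropped.

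Transcripts averaging at least 1 TPM over the 7 mice entered limma 3.58.1 (R 4.3.3, variance trend) on log2(TPM + 1), with Benjamini-Hochberg adjustment and a threshold of 0.05. Fold changes on this scale understate those of low transcripts. Pairs of tested transcripts of a symbol were tested by their within-mouse difference, leaving out 9 pairs of equal values (within 1e-09). For single values, the 35 splits of the mice gave an exact two-sided permutation p. GENCODE M21 (GRCm38) gave positions and 31-base windows, with 27802 identifiers in the same version. A window counted as a transcript's own when no other annotated transcript of the same gene held it. Other genes were not compared. The window length was chosen here. The water-treated mice were scaled in another table and are shown beside, untested against DSS. P-values measure the spread between these mice only. The fits were tested on simulated data. Named were the study's own genes, every call, the 12 largest non-overlapping differences in each direction, the 10 largest pairs moving apart, and up to 4 non-overlapping members of each list. The members and lists were chosen with earlier results of these data known, and 9 lists come from the study. A few named transcripts are not reported here. Alternatives are given at the end.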

Additional observations from a re-analysis of the deposited data

Results flagged for a closer look

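Among the 73 named transcripts, 8 had 1 of the 4 knockout-labelled mice far from the other 3 by Dixon's test, which chance alone flags in about 1 of 20 groups. In 6 of them the distant mouse was high. 1810009A15Rik had 19.15 TPM in knockout-labelled 1, against 8.03 to 9.28 TPM in the others. Gps2 ENSMUST00000057884.5 had 7.206 TPM in knockout-labelled 3, against no more than 0.0125 TPM. Pdzk1ip1 had 5.826 TPM in knockout-labelled 2, against no more than 0.291 TPM, and Fam171a1 had 3.2 TPM in knockout-labelled 1, against 0.0277 to 0.0441 TPM. Gtf2e2 ENSMUST00000171010.7 had 4.787 TPM in knockout-labelled 2, against no more than 2.37e-09 TPM. St3gal6, a sialyltransferase, had 50.29 TPM in knockout-labelled 4, against 44.9 to 45.7 TPM, the control range being 51.0 to 55.4 TPM. The distant mouse was low for Clk4, at 20.04 TPM in knockout-labelled 1 against 22.5 to 22.9 TPM, and for Rhoc, at 1.343 TPM in knockout-labelled 3 against 8.18 to 9.40 TPM.

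For 4 of 455 transcripts (0.879%) every knockout-labelled mouse lay on one side of the controls after DSS and on the opposite side in water. Of all transcripts tested in water, 1.54% were without overlap in either direction. The difference between the treatments was not tested, because the tables were scaled separately. Anapc1, a subunit of the anaphase-promoting complex, differed by 0.206 (SE 0.118) after DSS and by -0.115 (SE 0.105) in water. Mfge8, a secreted protein that binds apoptotic cells, differed by -0.675 (SE 0.344) and 0.81 (SE 0.337). Hlcs, the enzyme that attaches biotin to carboxylases, differed by 0.559 (SE 0.282) and -0.881 (SE 0.336). Lrrc8d, a subunit of volume-regulated anion channels, differed by 1.501 (SE 0.687) and -1.663 (SE 0.775). Its mean was 2.11e-06 TPM in the DSS controls and 2.79 TPM in the knockout-labelled mice, with 4.54 and 5.81e-05 TPM in water.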

How the results depend on the processing

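The 2 calls, Tra2a and Erlin1, were kept with median-of-ratios factors, quantile normalization and robust empirical Bayes. The count was 0 with a pseudocount of 0.1, without a filter on low values, with a mean of at least 5 TPM (which removes the Erlin1 transcript), with cage as a covariate and in cage d alone, and 1 (Tra2a) with TPM summed per gene. Without 1 mouse it ranged from 0 (without control 2 or any knockout-labelled mouse) to 9 (without control 1, Tra2a and Erlin1 among them), and was 2 without control 3, with Ttc17 in place of Erlin1. Adjusted p by limma ranged over these settings from 0.00369 to 0.222 for Tra2a and from 0.0108 to 0.264 for Erlin1. With the replicate block described below it was 0.79 for Tra2a and 0.857 for Erlin1. The other causes were not tested. The 502 non-overlapping transcripts became 287 of 7803 with a mean of at least 5 TPM, where fewer transcripts were tested, and 751 of 21065 (3.57%) without a filter. With fewer mice separation is easier: the count ranged from 758 to 1758 without 1 mouse and was 2442 in cage d. The pseudocount, the robust fit, cage and block do not enter this count. The share of higher transcripts was 54.8%, 46.3% with median-of-ratios factors and 43.2% with quantile normalization. Called pairs were 0 in every setting but 1, the fit without control 1 (1 pair, Erlin1), so they ranged from 0 to 1. The replicate numbers do not pair the mice: same-numbered mice deviated from their group means with correlations of -0.15, 0.031 and -0.128. With the number as a replicate block 0 transcripts and 0 pairs were called. No pair reversed. Of the 73 named transcripts, 5 did, all with overlapping groups. Ly6a ENSMUST00000187994.6 was -0.09 and Tnfrsf1b -0.18 in cage d. Without 1 mouse, Tnfrsf1b ranged from -0.06 to 0.36, Tgfb1 from -0.03 to 0.42, Yap1 from -0.43 to 0.64 and Ly6a ENSMUST00000189068.6 from -0.42 to 0.09. Leaving out mice for the gene lists was chosen after seeing the data. TPM without counts leaves the precision of low transcripts unknown.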

Other observations

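The transcripts here lie outside the rule for named genes and were chosen after their values were seen. In Alg9 and Ncoa5 no mouse was near 0. Alg9, a mannosyltransferase of N-glycan assembly, had 3.71, 3.99 and 3.56 TPM in the controls, against 12.8, 9.03, 10.2 and 12.6 TPM in the knockout-labelled mice. The difference of its transcript ENSMUST00000034561.10 was 1.34 (SE 0.17), and the adjusted p by limma was 0.287. Ncoa5, a coregulator of nuclear receptors, had 12.7, 16.6 and 12.7 TPM in the controls, against 6.24, 5.06, 5.93 and 5.77 TPM, a difference of -1.15 (SE 0.16) with an adjusted p of 0.339 by limma.

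Oxsm, a mitochondrial fatty acid synthase enzyme, gave a pair of unequal size. Its minor transcript ENSMUST00000022311.11 had 0.219, 0.242 and 0 TPM in the controls, against 5.80, 2.30, 5.13 and 3.62 TPM. Its main transcript ENSMUST00000112625.8 had 13.7, 13.2 and 9.69 TPM, against 9.42, 10.9, 10.9 and 10.5 TPM, with overlap.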
